A study of Mus musculus with 32 samples.

Results

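Lungs of Gsr-knockout (KO) mouse pups that had breathed 100% oxygen from birth were compared at postnatal day 5 (P5) with lungs of wild-type (WT) pups given the same exposure. The arrays were taken by their titles: 3 KO P5 hyperoxia arrays and 3 WT P5 hyperoxia arrays, 6 of the 32 arrays of the series. All 13345 genes that passed a filter on low signal were compared, each through the one of its probe sets that was brightest on average in the series. The comparison addresses how lungs without glutathione reductase differ from lungs with it when both develop under high oxygen. Newborns stayed with their dams from P0 to P5 in hyperoxia (100% O2) or in room air, and the 3 KO P5 air and 3 WT P5 air arrays serve here as a second comparison at the same age. Both genotypes are labelled as C3H/HeN, an inbred strain, and neither the sex of the pups, their litters nor the structure of the knockout allele is given in the sources used here. RNA was made from part of each mouse's lung tissue and hybridized to Affymetrix Mouse 430_2 arrays, 1 array per mouse as labelled. Values are MAS5 signals, a linear brightness per probe set, and each array is scaled to the same trimmed mean.

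Glutathione reductase uses NADPH to turn oxidized glutathione back into reduced glutathione, the form that glutathione peroxidases and glutaredoxins consume when they remove peroxides and repair oxidized proteins. The thioredoxin system draws on the same NADPH and works beside it. Newborn mice kept in high oxygen are a common model of the arrested alveolar and vessel growth seen in preterm infants with bronchopulmonary dysplasia, and oxygen injury in lung switches on the p53 and NRF2 programmes.

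In hyperoxia, KO lungs differed from WT lungs in 25 of 13345 genes (0.187%) at limma's Benjamini-Hochberg adjusted p under 0.05, which is the meaning of "called" below. Of these, 23 genes were higher in KO lungs (0.172% of the genes) and 2 were lower (0.015%). The lower genes were Gsr itself and Afp, the fetal serum protein alpha-fetoprotein. Those higher fell mainly into 2 gene groups not typical of lung parenchyma: 7 keratin, desmosome and cornified-layer genes of stratified squamous epithelium, and 6 genes of fast skeletal muscle. At an unadjusted p under 0.05 the count was 403 genes (3.02%). In all 25 called genes the 3 KO arrays and the 3 WT arrays did not overlap and the means differed by more than 2-fold. Over all genes, 9.9% had every KO array above and 8.61% every KO array below the WT arrays. The calls come from these same arrays, so the lack of overlap describes the called genes and is no separate support. Of 14 further probe sets for 8 of these genes, 12 pointed the same way. The filter on low signal was passed by 8 of the 14, and all 8 pointed the same way. An Afp probe set among the 8 moved by only -0.12, at signals of 18.3 or less. The rest failed the filter, those that pointed the other way included, so their signs carry little weight.

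Promoter sequences are shown for 1 gene of each kind of change: squamous (Krt13), muscle (Myh8), fetal liver protein (Afp) and the single called gene of an interferon-induced family (Ifit1bl1). They are the 250 bases before the annotated start on the gene's strand, from RefSeq on GRCm38.p6, where 15 of the 25 called genes had an entry; Gsr, Saraf, Krt4 and Tnnt3 are named only. Capitals mark a motif searched for on both strands. In Krt13 (chr11:100121567-100121816, minus strand) it is TGANTCA, a loose form of the AP-1 site that allows any middle base, here A. In Myh8 (chr11:67276874-67277123, plus strand) it is CANNTG, the E-box, and in Afp (chr5:90490464-90490713, plus strand) TATAAA. In Ifit1bl1 (chr19:34601969-34602218, minus strand) it is GAAA followed by any 2 bases and GAAA, the core of interferon response elements.
Krt13: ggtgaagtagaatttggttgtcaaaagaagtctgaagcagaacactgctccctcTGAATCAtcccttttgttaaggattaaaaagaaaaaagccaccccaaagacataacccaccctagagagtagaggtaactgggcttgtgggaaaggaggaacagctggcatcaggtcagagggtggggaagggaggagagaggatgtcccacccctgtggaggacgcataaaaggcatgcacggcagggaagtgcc
Myh8: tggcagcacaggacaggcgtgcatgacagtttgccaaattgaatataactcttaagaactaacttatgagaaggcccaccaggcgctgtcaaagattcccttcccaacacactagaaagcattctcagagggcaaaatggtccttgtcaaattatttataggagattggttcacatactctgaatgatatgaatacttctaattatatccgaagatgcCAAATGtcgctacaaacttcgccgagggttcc
Afp: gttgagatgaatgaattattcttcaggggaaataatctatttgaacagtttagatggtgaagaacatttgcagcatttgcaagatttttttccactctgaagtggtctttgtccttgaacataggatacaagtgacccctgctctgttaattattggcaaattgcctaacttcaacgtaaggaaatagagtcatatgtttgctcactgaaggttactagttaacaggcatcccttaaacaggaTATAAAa
Ifit1bl1: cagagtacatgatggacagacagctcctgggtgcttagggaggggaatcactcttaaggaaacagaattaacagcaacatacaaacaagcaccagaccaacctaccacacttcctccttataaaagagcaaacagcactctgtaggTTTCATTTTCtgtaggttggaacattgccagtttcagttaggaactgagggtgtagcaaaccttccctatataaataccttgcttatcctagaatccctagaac
Each of these windows held 1 match to its motif. Among the 21 windows of called genes other than Gsr, TGANTCA occurred in 4 (19%), against 6.75% of all 32851 windows, CANNTG in 14 (66.7%), against 66.2%, TATAAA in 6 (28.6%), against 12.4%, and the interferon element core in 3 (14.3%), against 2.98%. A gene with several starts has several windows, which can overlap, and a match is only a run of letters.

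The targeted gene set the genotypes apart in every array. Gsr had signals of 138, 161 and 161 in KO hyperoxia lungs, against 781, 925 and 890 in WT hyperoxia lungs. The lowest WT array lay far above the highest KO array. Gsr averaged 154 ± 13.2 in KO and 865 ± 75.1 in WT lungs (SD, n = 3 each), a log2 difference of -2.31 (SE 0.18, limma adjusted p = 1.42e-08). An exact two-sided permutation test of the 6 arrays gave p = 0.1, the smallest that 3 against 3 allows. The second Gsr probe set gave -2.90. In air Gsr was also lower in KO lungs, by a log2 difference of -1.80 (limma adjusted p = 3.28e-06).

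Saraf, which encodes a regulator of store-operated calcium entry and lies 456 kb from Gsr on chromosome 8 (Gsr at 33653238 to 33698162 and Saraf at 34154579 to 34170847 on GRCm38.p6), was higher in KO lungs. Its signals were 5007, 4912 and 5412 in KO hyperoxia lungs, against 1725, 2146 and 2158 in WT hyperoxia lungs. All 3 KO arrays exceeded all 3 WT arrays, with a log2 difference of 1.34 (SE 0.16, limma adjusted p = 2.91e-05). The difference was present without oxygen too, at 1.12 in air (limma adjusted p = 0.000809). Saraf and Gsr were the only called genes that passed the test in the same direction at every other age and exposure, in other animals: at E19, in adult (P56) air lungs and in P56 lungs after neonatal hyperoxia. Saraf had log2 differences of 1.17, 0.82 and 1.23 there.

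**Figure D1:**
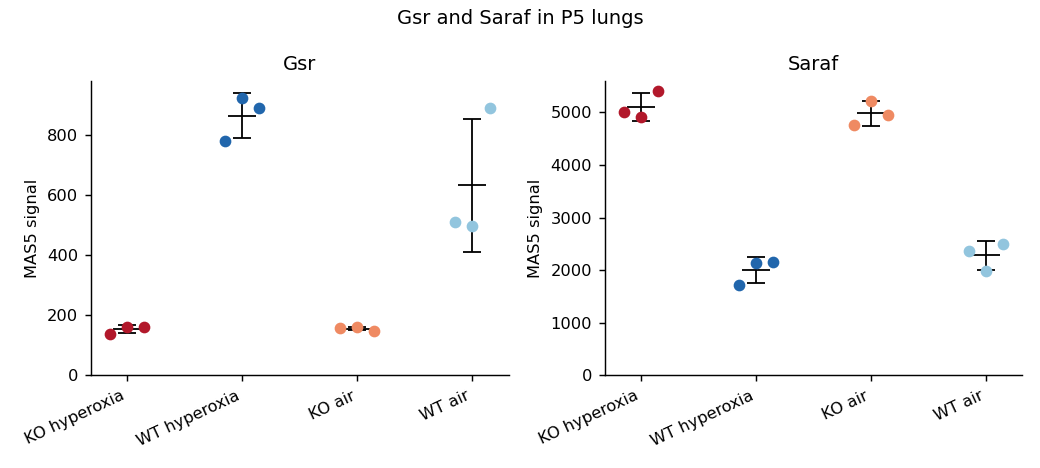
MAS5 signal of Gsr (left) and Saraf (right) on a linear axis in each P5 array: KO hyperoxia, WT hyperoxia, KO air and WT air, with points for arrays and bars for mean ± SD (n = 3). Gsr stays at 161 or below in the KO hyperoxia arrays and at 781 or above in the WT hyperoxia arrays, while Saraf is at 4912 or above in KO and at 2158 or below in WT hyperoxia arrays.

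Several arrays stood apart from their group or differed in ways that bear on the results. KO hyperoxia replicate 1 was low for p53 target genes: Cdkn1a, the cell-cycle inhibitor p21, had signals of 1296, 8384 and 8155 in KO hyperoxia lungs, against 8589, 6471 and 6329 in WT hyperoxia lungs. In air the same gene read 1881, 883 and 924 in KO and 848, 840 and 6352 in WT lungs. KO hyperoxia replicate 1 was thus in the range of 5 of the 6 air arrays, and WT air replicate 3 in that of the other hyperoxia arrays. In KO hyperoxia replicate 1 Gsr was at 138 and Saraf at 5007, near the other KO hyperoxia arrays. The labels do not settle whether the exposures of these 2 arrays were exchanged, and this was not tested. Values labelled KO hyperoxia and WT air thus rest in part on arrays whose exposure is in doubt. Without both arrays 11 of the 25 genes were still called. Xist, expressed from an inactive X chromosome, had signals of 97.0, 129 and 10530 in KO hyperoxia lungs, against 332, 179 and 5229 in WT hyperoxia lungs. Y-linked genes, averaged as centred log2 values, were at 1.94, 1.83 and -2.60 in KO and at 1.90, 1.99 and 1.79 in WT hyperoxia lungs. KO replicate 3 thus had high Xist with low Y-linked signal, and WT replicate 3 carried high signal of both; whether the RNA of that array came from more than 1 pup is not known from the labels and was not tested. The 5′ control probe set of 18S rRNA read 3542, 5882 and 15688 in KO hyperoxia lungs, against 18961, 17441 and 17532 in WT hyperoxia lungs, with no overlap. In air it read 512, 229 and 1867 in KO lungs, against 18734, 16417 and 19030 in WT lungs. This control signal thus differed along with genotype in both comparisons. The mean log2 ratio of 3′ over 5′ control signal was 0.33, 0.27 and 0.28 in KO and 0.78, 0.34 and 0.37 in WT hyperoxia lungs. The part of these differences in the results was not tested, beyond the fits without each array and with the Y-linked level given below. All 6 arrays were lung by their defining markers: Sftpc of alveolar type 2 cells had signals of 14817, 16588 and 16068 in KO and 19208, 15318 and 12636 in WT lungs, and Ager of type 1 cells and Scgb1a1 of club cells also overlapped between the genotypes.

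The list of squamous and basal epithelium held 22 measured genes, of which 7 were called higher in KO hyperoxia lungs and none lower. In 19 of the 22 every KO array lay above every WT array, where 9.9% of all genes did so, and the median log2 difference was 2.06, against 0.01 over all genes. The list named 31 genes, and the filter on low signal kept those above 100.4 in 3 or more arrays of the series. The 3 KO hyperoxia arrays alone could thus bring a gene into the 22. How far this raised the share and the median was not tested. The genes of the list build the basal and suprabasal layers of stratified epithelium such as that of esophagus, oral mucosa and upper airway. Krt4, a keratin of the suprabasal layers of such epithelia, had signals of 3172, 4366 and 2499 in KO hyperoxia lungs, against 82.6, 53.2 and 83.4 in WT hyperoxia lungs. Its WT arrays were all under the median signal of the platform and its KO arrays were far above it, a difference of at least 25.9-fold (fitted log2 5.06, SE 0.91, limma adjusted p = 0.0118). A bound of this kind sets the WT group at the median of all values, 100.4, because signals below it are not measured well. Krt13, the keratin that pairs with Krt4, had signals of 2071, 3311 and 1600 in KO, against 23.3, 27.8 and 26.2 in WT lungs. It was again high in every KO array and low in every WT array, at least 17.7-fold higher in KO (fitted log2 5.43, limma adjusted p = 0.0118).

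Krt5, the keratin of basal cells, had signals of 646, 559 and 495 in KO hyperoxia lungs, against 68.6, 57.5 and 60.3 in WT hyperoxia lungs. The difference was at least 4.65-fold (fitted log2 2.74, limma adjusted p = 0.0235). The desmosome genes Dsc2 and Pkp1 rose by fitted log2 differences of 2.25 and 2.97, and the cornified-layer genes Krtdap and Crct1 by 2.35 and 2.41, with limma adjusted p between 0.00567 and 0.0235. Outside the list, Csta1, a cystatin of the cornified envelope, rose by 2.82 and Cnfn, cornifelin, by 1.93 (limma adjusted p = 0.0118 for both). Csta1 signals were 208, 485 and 233 in KO and 11.1, 18.9 and 25.2 in WT hyperoxia lungs. Calml3, a calmodulin-like gene of stratified epithelium, had a log2 difference of 2.78 without overlap (limma adjusted p = 0.112). Among basal cell genes that did not pass the test, Krt15 had a log2 difference of 3.54 (limma adjusted p = 0.0537) and Trp63, the transcription factor that defines basal cells, 1.87 (limma adjusted p = 0.0795). Krt14 had signals of 145, 116 and 108 in KO, and 34.7 or less in WT lungs, with a log2 difference of 1.61 (limma adjusted p = 0.594).

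The fast skeletal muscle list held 28 measured genes. In KO hyperoxia lungs 6 of them were called higher and none lower. In 25 every KO array lay above every WT array, where 9.9% of all genes did so, and the median log2 difference was 2.02. The filter on low signal could bring genes into this list in the same way, and its part in the share was not tested. Fitted with the 6 compared arrays alone, limma called 1 of the 28 higher, and 13 of the 22 squamous genes, against 0.21% of all genes. With the 4 P5 groups alone it called 0 of the 28 and 0 of the 22. Myh8, the perinatal fast myosin heavy chain, had signals of 4136, 3000 and 3422 in KO hyperoxia lungs, against 21.2, 267 and 611 in WT hyperoxia lungs. The 3 KO arrays were alike, whereas the WT arrays were spread widely below them (log2 difference 4.08, SE 0.84, limma adjusted p = 0.0260). Tnnt3, fast skeletal troponin T, had signals of 1491, 1225 and 1139 in KO, against 17.7, 142 and 335 in WT lungs. All KO arrays were again above all WT arrays, with replicate 1 the lowest of the WT arrays (log2 difference 3.23, limma adjusted p = 0.0128). The giant thin-filament protein gene Neb, the fast-fibre calcium pump gene Atp2a1, the fast-fibre actinin gene Actn3 and the calcium release channel gene Ryr1 rose by log2 differences of 3.15, 2.24, 2.43 and 1.95.

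Genes known from muscle were also among the called genes outside the list. Asb5, Ampd1 (the muscle AMP deaminase), Sypl2 (a triad junction protein) and Atp1b4 (a muscle protein of the nuclear envelope) rose by 1.39, 1.85, 1.92 and 2.58, with limma adjusted p of 0.0142, 0.0233, 0.0118 and 0.0497. Abundant muscle genes with a wider spread in WT lungs did not pass: Acta1, skeletal alpha-actin, had signals of 7884, 7299 and 6483 in KO, against 181, 1452 and 3507 in WT lungs (log2 difference 2.82, limma adjusted p = 0.614). Every KO array was higher, but the WT arrays were spread from 181 to 3507. Myl1 and Tnnc2, a myosin light chain and troponin C of fast fibres, also had no overlap, with log2 differences of 3.55 and 3.46 (limma adjusted p of 0.875 and 0.347). Myog, the differentiation factor myogenin, had signals of 645, 158 and 376 in KO and 5.16, 89.6 and 127 in WT lungs (limma adjusted p = 0.304). In the heart muscle list none of the 23 measured genes was called and the median log2 difference was 0.01. Myh6, the atrial myosin heavy chain, had signals of 3945, 3786 and 2196 in KO and 3183, 3624 and 3445 in WT lungs, which overlapped.

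**Figure D2:**
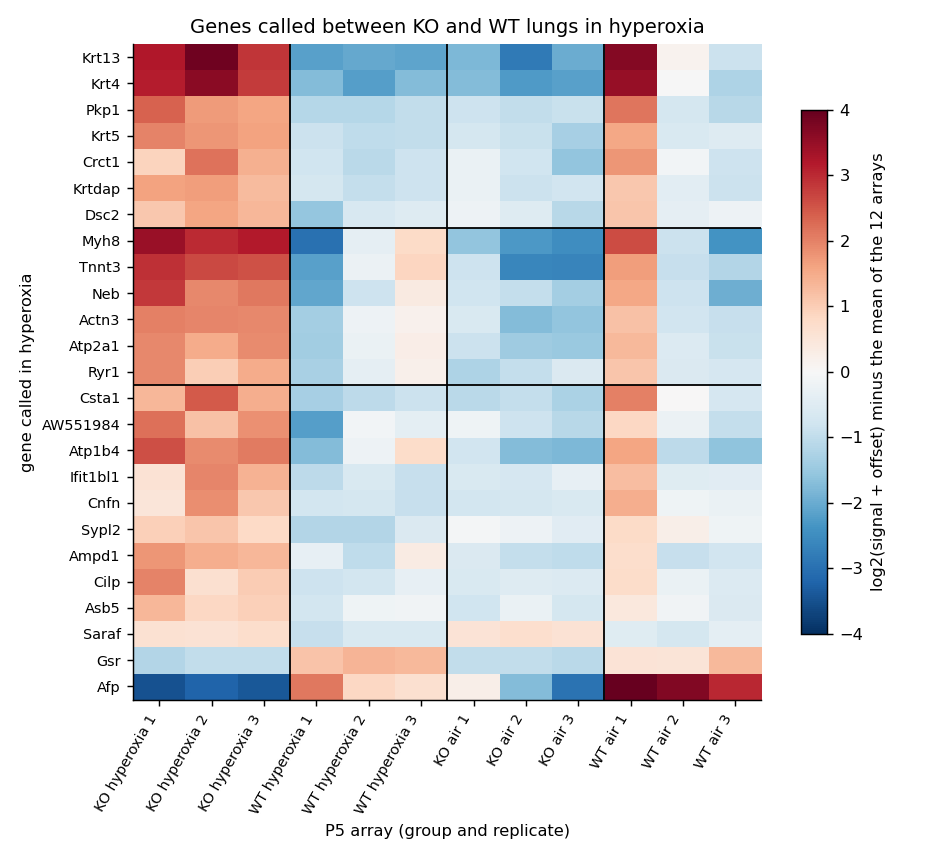
Heat map of the 25 called genes in the 12 P5 arrays, as log2(signal + offset) minus the mean of the 12 arrays, in the order KO hyperoxia, WT hyperoxia, KO air and WT air. Lines separate the squamous list (7 genes), the fast skeletal muscle list (6 genes) and the other genes (12 genes). The squamous and muscle genes are high in the 3 KO hyperoxia arrays and in WT air replicate 1.

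The squamous and muscle groups were not high in KO hyperoxia lungs alone. A list level is the mean of its genes' log2 values, each centred on the gene's mean over the 32 arrays. The squamous level was 1.38, 1.82 and 1.36 in KO hyperoxia lungs and -0.62, -0.43 and -0.34 in WT hyperoxia lungs. In air it was -0.18, -0.58 and -0.61 in KO lungs and 1.5, -0.02 and -0.34 in WT lungs. The muscle level was 2.34, 1.99 and 2.05 in KO hyperoxia lungs and -1.01, 0.31 and 1.09 in WT hyperoxia lungs, and in air 0.19, -0.51 and -0.78 in KO and 1.73, 0.04 and -0.41 in WT lungs. WT air replicate 1 thus reached the range of the KO hyperoxia arrays for squamous genes and came near it for muscle genes. At gene level, Krt4 had a signal of 4052 and Myh8 of 2293 in that array, against 128 to 336 for Krt4 and 46.5 to 181 for Myh8 in the other WT air arrays. The labels do not say which portion of each lung was taken, and how far the portion or attached tissue set these levels was not tested. In such bulk samples, more or fewer cells of a type cannot be told apart from more or less RNA per cell.

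With either level as a covariate of the fit, most calls were lost: 1 gene (Gsr) was called with the squamous level and 2 (Gsr and Saraf) with the muscle level. The covariate holds the listed genes themselves, so it takes their own difference out by construction. The calls also rested on few animals. Without KO hyperoxia replicate 1, 6 of the 25 genes were still called (Cnfn, Csta1, Gsr, Ifit1bl1, Krtdap and Saraf), 1 of 22 squamous genes and 0 of 28 muscle genes among them. Without WT hyperoxia replicate 1 or without WT hyperoxia replicate 2, 3 genes were called each time, and without KO hyperoxia replicates 2 and 3 the counts were 4 and 6. Without WT hyperoxia replicate 3, in contrast, 24 genes were called, with 20 of the 25 among them. When each of the 6 arrays was left out in turn, the squamous median ran from 1.85 to 2.13 and the muscle median from 1.57 to 2.48. The sign of these medians could not change, because in most genes of both lists every KO array lay above every WT array.

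**Figure D3:**
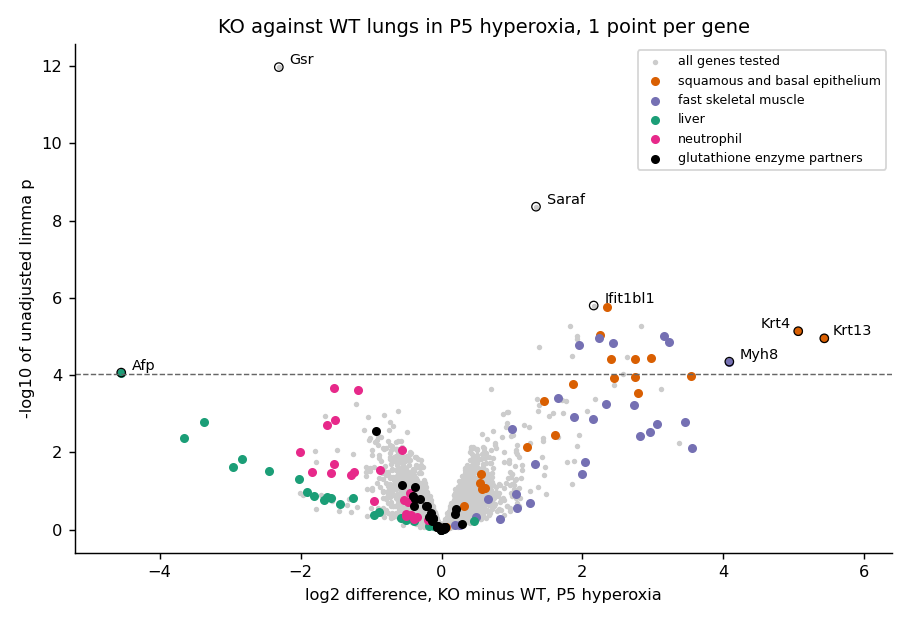
Each point is 1 of 13345 genes, with the log2 difference KO minus WT in P5 hyperoxia on the horizontal axis and -log10 of limma's unadjusted p on the vertical axis; points above the dashed line are the 25 called genes. Squamous and fast skeletal muscle genes spread to the right, liver and neutrophil genes to the left, and the enzymes that work with glutathione reductase lie between -0.92 and 0.29.

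The other called genes were Ifit1bl1, Cilp and AW551984. Ifit1bl1, a member of the interferon-induced Ifit family, had signals of 359, 966 and 645 in KO hyperoxia lungs, against 98.9, 144 and 109 in WT hyperoxia lungs. All KO arrays were higher, with a log2 difference of 2.16 (SE 0.35, limma adjusted p = 0.00567). The interferon response list did not follow it: none of its 39 measured genes was called and the median was -0.00. In 4 all KO arrays lay above (9.9% of all genes) and in 2 all KO arrays below (8.61% of all genes). Cilp, a cartilage matrix protein gene, had signals of 518, 189 and 253 in KO, against 52.4, 56.9 and 85.1 in WT lungs (log2 difference 1.83, limma adjusted p = 0.0118). AW551984 had signals of 721, 342 and 549 in KO, against 8.99, 126 and 97.3 in WT lungs (2.63, limma adjusted p = 0.0233). Both were higher in every KO array than in any WT array.

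The liver list shifted the other way. Of 23 measured genes 1 was called lower in KO hyperoxia lungs and none higher. In 18 every KO array lay below every WT array, where 8.61% of all genes did so, and the median log2 difference was -1.56. Afp had signals of 73.2, 94.2 and 79.7 in KO hyperoxia lungs, against 4769, 1946 and 1688 in WT hyperoxia lungs. The KO arrays were all under the median signal and the WT arrays all far above it, so that Afp was at least 20.0-fold lower in KO lungs (fitted log2 -4.55, limma adjusted p = 0.0478). This call held in 6 of 23 alternative settings, against 15 for Krt4 and 11 for Myh8, and was lost in every fit without 1 of the 6 arrays. With the replicate number as a block limma's adjusted p for Afp was 0.0606. Alb, serum albumin, had signals of 226, 164 and 94.4 in KO, against 3970, 1265 and 1226 in WT lungs, without overlap (limma adjusted p = 0.349). Ttr and Apoa1 were also below the WT arrays in every KO array, and did not pass the test (limma adjusted p of 0.642 and 1.0). In air Afp was lower in KO lungs as well, with signals of 1260, 306 and 116 in KO and 20247, 14241 and 8803 in WT lungs (log2 difference -5.12, limma adjusted p = 0.0486). The median of the liver list in air was -3.22, and in hyperoxia without WT replicate 1 it was -1.08. The liver level was -1.68, -1.81 and -1.89 in KO hyperoxia lungs and 0.44, -0.54 and -0.54 in WT hyperoxia lungs.

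Neutrophil genes were lower in KO lungs in direction, but none of 22 measured genes passed limma's adjusted threshold. In 13 of the 22 every KO array lay below every WT array, where 8.61% of all genes did so, and the median log2 difference was -0.91. S100a9, which encodes a calgranulin abundant in neutrophils, had signals of 2133, 1806 and 2358 in KO hyperoxia lungs, against 5742, 9464 and 11156 in WT hyperoxia lungs. The highest KO array was far below the lowest WT array (log2 difference -2.01, limma adjusted p = 0.921). Its partner S100a8 had 5083, 3364 and 4568 in KO and 8907, 13454 and 15579 in WT lungs. The collagenase gene Mmp8 had 63.9, 71.4 and 63.5 in KO and 161, 290 and 296 in WT lungs (limma adjusted p = 0.0916), and the gelatinase gene Mmp9 141, 80.0 and 136 in KO and 254, 315 and 325 in WT lungs (limma adjusted p = 0.0939). Cxcr2, the chemokine receptor of neutrophils, and the granule genes Camp, Ngp and Mpo had log2 differences of -1.63, -1.84, -1.57 and -0.96. Fitted with the 6 compared arrays alone, limma called 3 of the 22 lower (S100a8, S100a9 and Mmp8), against 0.112% of all genes. With array weights it called 15 of the 22 lower, against 6.33% of all genes. The weights were 0.63, 4.42 and 1.87 for the KO and 0.58, 10.43 and 1.71 for the WT hyperoxia arrays. Counts with array weights, here and below, therefore rest mostly on replicate 2 of each group. In air the list median was -0.58.

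Signals that recruit neutrophils pointed the same way without passing the test. In the inflammatory list 7 of 29 genes had every KO array below every WT array and none above, where 8.61% of all genes lay below and 9.9% above. Cxcl1 had signals of 167, 234 and 239 in KO hyperoxia lungs, against 375, 375 and 321 in WT hyperoxia lungs, and Cxcl2 had 23.3, 20.7 and 36.7, against 43.5, 105 and 114. The KO arrays were below the WT arrays in both (log2 differences -0.69 and -1.04, limma adjusted p of 1.0 and 0.275). Cxcl2 was below 100.4, under which signals are not measured well, in every KO array and in WT replicate 1. Cxcl3, Cxcl5 and Cxcl15 had differences of -0.33, -0.58 and -0.17 and overlapped between the genotypes. Socs3, the feedback inhibitor of cytokine receptors, and Il1b, which is also in the neutrophil list, had differences of -0.50 and -0.47. Among immediate early genes 5 of 26 lay below the WT arrays and none above, beside the same shares of all genes. Atf3, a stress-induced transcription factor, was at 185, 174 and 209 in KO and 330, 312 and 360 in WT lungs (-0.74, limma adjusted p = 0.492). With array weights limma called 9 of the 29 inflammatory genes lower and 1 higher. It then called 9 of the 26 immediate early genes lower and none higher, against 6.33% of all genes lower and 7% higher.

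**Figure D4:**
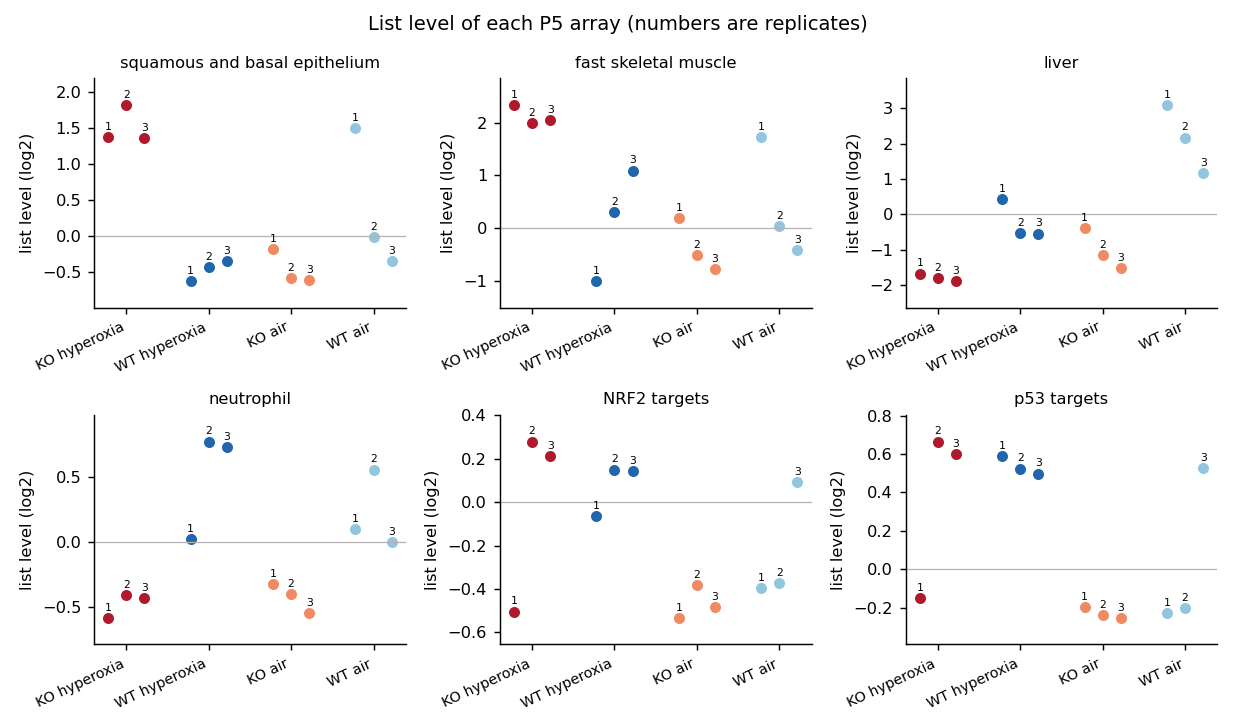
List level (mean centred log2 value of the list's genes) of each P5 array for 6 lists, with points numbered by replicate, in the order KO hyperoxia, WT hyperoxia, KO air and WT air. The squamous, muscle, liver and neutrophil lists separate KO hyperoxia from WT hyperoxia arrays; for p53 and NRF2 targets KO hyperoxia replicate 1 lies with the air arrays, at -0.15 and -0.50.

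The enzymes that work with glutathione reductase gave no called gene in the fit without array weights. Of the 31 measured partners in glutathione metabolism none was called there. In 6 every KO array lay below and in 1 every KO array above the WT arrays, against 8.61% and 9.9% of all genes. The median log2 difference was -0.07. With array weights limma called 6 of the 31 lower and none higher, against 6.33% and 7% of all genes. Slc7a11, the cystine importer that feeds glutathione synthesis, had signals of 24.5, 79.8 and 66.7 in KO hyperoxia lungs, against 114, 130 and 130 in WT hyperoxia lungs. Its KO arrays lay below its WT arrays (log2 difference -0.92, limma adjusted p = 0.498). Gpx4, the phospholipid hydroperoxide peroxidase, had 6570, 6389 and 7444 in KO and 8619, 8634 and 9086 in WT lungs (-0.37, limma adjusted p = 1.0), also without overlap. The catalytic subunit of glutathione synthesis, Gclc, read 827, 2486 and 1931 in KO and 2244, 2399 and 2405 in WT lungs, overlapping; replicate 1 was the low KO array. Gpx1, Gpx3, Gss and Glrx overlapped between the genotypes.

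None of 17 thioredoxin genes was called, with a median of 0.05. Nxn, nucleoredoxin, and Msrb3, a methionine sulfoxide reductase, lay above the WT arrays in every KO array (0.37 and 0.34), and Txnl1, a thioredoxin-like protein, lay below them (-0.20), all with limma adjusted p of 1.0. With array weights 5 of the 17 were called higher and none lower, against 7% of all genes higher. Txnrd1, cytosolic thioredoxin reductase, had signals of 2084, 3287 and 3486 in KO hyperoxia lungs, against 2262, 2427 and 2671 in WT hyperoxia lungs. KO replicates 2 and 3 were above all WT arrays and replicate 1 below them (log2 difference 0.23, limma adjusted p = 1.0). Srxn1, sulfiredoxin, showed the same order at 254, 594 and 556 in KO and 386, 389 and 392 in WT lungs. None of 18 NADPH-producing enzymes and none of 17 glutathione S-transferases was called, with medians of -0.04 and 0.07. Nadk, NAD kinase, lay slightly below the WT arrays in every KO array (log2 difference -0.10, limma adjusted p = 1.0), as did Gstm3 (-0.50), while Gsto1 lay above them (0.39).

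None of 32 NRF2 target genes was called and their median was -0.02, but the KO arrays disagreed among themselves. The NRF2 list level was -0.50, 0.28 and 0.21 in KO hyperoxia lungs and -0.06, 0.15 and 0.14 in WT hyperoxia lungs. Gpx2, the intestinal-type glutathione peroxidase, had signals of 62.8, 929 and 1290 in KO and 205, 443 and 545 in WT lungs: replicates 2 and 3 were the highest of the 6 and replicate 1 the lowest. Without KO hyperoxia replicate 1 the list median was 0.15. The p53 target list behaved alike, with a level of -0.15, 0.66 and 0.60 in KO hyperoxia lungs and 0.59, 0.52 and 0.50 in WT hyperoxia lungs. None of its 34 genes was called; the median was -0.17 over all arrays and 0.10 without KO hyperoxia replicate 1. Eda2r, a p53-induced receptor, read 84.4, 738 and 723 in KO and 773, 612 and 613 in WT lungs.

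Lung cell types and structural programmes gave no called gene by limma's adjusted p. The counts that follow stand beside 9.9% of all genes with every KO array above and 8.61% with every KO array below the WT arrays. In the smooth muscle and myofibroblast list 7 of 22 genes lay above the WT arrays in every KO array and none below, with a median log2 difference of 0.23. The list level was 0.89, 0.49 and 0.34 in KO and 0.24, 0.31 and 0.23 in WT hyperoxia lungs. It was highest in KO replicate 1, whose exposure is in doubt. Myh11, smooth muscle myosin, had signals of 4304, 2859 and 1832 in KO hyperoxia lungs, against 1695, 1327 and 1264 in WT hyperoxia lungs, and Cnn1, calponin, 1211, 1368 and 1038, against 475, 793 and 804. The KO arrays were higher in both, with log2 differences of 0.98 and 0.81 (limma adjusted p = 1.0). Of 18 elastic fibre genes 6 lay above and none below, led by Mfap5 (0.58), a microfibril protein. The elastic fibre level was 0.62, 0.39 and 0.38 in KO and 0.27, 0.34 and 0.30 in WT hyperoxia lungs, again highest in KO replicate 1. Among 24 fibroblast genes 3 lay above and 3 below. Lum and Dcn, small matrix proteoglycans, were above by 1.73 and 1.14 (Lum had a limma adjusted p of 0.243, and 0.0414 with the 6 compared arrays alone), and Fgf10, a growth factor for lung epithelium, was below by -0.46.

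In 9 of 38 mitosis genes every KO array lay above every WT array and none below, beside the same 9.9% and 8.61% of all genes, with a median of 0.17. Birc5, survivin, had 1281, 1209 and 1200 in KO hyperoxia lungs, against 680, 794 and 964 in WT hyperoxia lungs (log2 difference 0.60, limma adjusted p = 1.0). Without KO hyperoxia replicate 1 the mitosis median was 0.06. In the imprinted growth gene list 8 of 16 lay above and none below, with a median of 0.19. Its member Dlk1, a Notch-like factor of fetal tissue, had 1789, 1105 and 1294 in KO, against 559, 620 and 655 in WT lungs (1.13), and Igf2, the fetal growth factor, 3728, 3119 and 4035, against 2609, 2450 and 2756 (0.47). The KO arrays of both were above the WT arrays, with limma adjusted p of 1.0. In the erythroid list 10 of 24 lay below and 2 above, with a median of -0.23, and of 28 endothelial genes 7 lay above, led by Pecam1 and Emcn (0.67 and 0.42), and 2 below. In the cholesterol and fatty acid list 7 of 28 lay above and 1 below, with Fads1 and Mvk at 0.49 and 0.48. The lists of alveolar type 1 and type 2, club and ciliated cells had medians of -0.09, -0.13, -0.19 and -0.28.

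The genotype difference in hyperoxia was set against that in air by a genotype-by-oxygen term, the change of the KO minus WT difference between both exposures. It was called for 20 genes (0.15% of 13345), all with a larger value in hyperoxia, and for 32 with the replicate number as a block. Of the 20 genes, 18 were among the 25 called in hyperoxia, a set this term shares its hyperoxia arrays with; the other two were Krt6a and 2300002M23Rik. Krt13 and Krt4 had terms of 8.63 and 7.86, Myh8 and Tnnt3 of 6.0 and 5.12 (limma adjusted p of 0.00757, 0.00757, 0.0257 and 0.00757). In air these genes were lower in KO than in WT lungs in direction, at -3.19, -2.80, -1.92 and -1.89, where WT air replicate 1 held the high values; none passed the test there. Of the 23 genes higher in KO hyperoxia lungs, 22 had a difference below 0 in air, Saraf being the exception. Without WT air replicate 1 the term was called for 7 genes, and without WT air replicate 3 for 34. Without KO hyperoxia replicates 1, 2 and 3 in turn it was called for 10, 13 and 12 genes, without WT hyperoxia replicates 1 and 2 for 6 and 10, and without KO air replicates 2 and 3 for 8 and 9. In air, 5 genes were called (0.0375%), Gsr, Saraf and Afp among them.

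**Figure D5:**
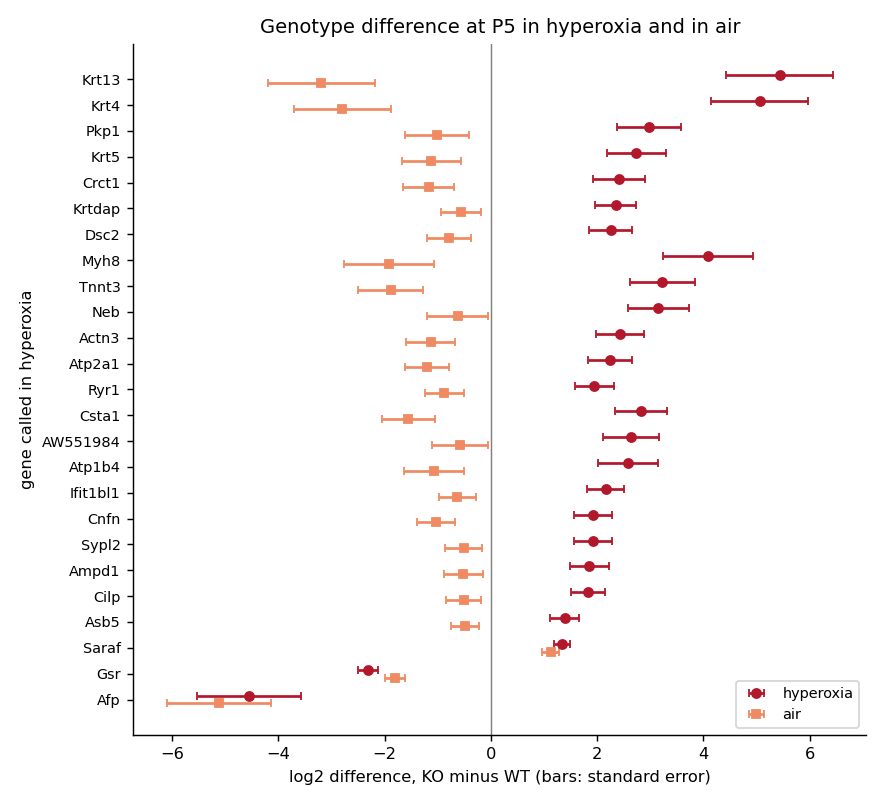
Log2 difference KO minus WT of the 25 called genes in P5 hyperoxia (circles) and in P5 air (squares), with bars for the standard error of the fit. Gsr, Saraf and Afp lie on the same side of 0 in both exposures, and the other 22 genes lie above 0 in hyperoxia and below 0 in air.

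At the other ages, measured in other animals, between 1 and 7 of the 24 called genes other than Gsr passed the test. At E19, 8 of the 24 had the direction of the P5 hyperoxia comparison. The count was 18 in adult lungs kept in air and 15 in adult lungs exposed to oxygen as newborns. Saraf alone of the 24 was called in P56 air and in P56 lungs after hyperoxia, where 0.0749% and 0.0375% of all genes were called. At E19, where 15.2% of all genes were called, 7 of the 24 were: Saraf, Afp and Ifit1bl1 in the direction of P5 hyperoxia, and Krt4, Krt13, Krtdap and Cnfn in the opposite one. Krt13 had a log2 difference of -3.52 and Afp of -3.09 at E19. Ifit1bl1 was higher in KO lungs at E19 by 1.05 (limma adjusted p = 0.0200) and had differences of 0.37 and 0.04 at P56. In KO E19 replicate 1 the mean log2 control signal ratio described above was 4.37. It was -0.01, -0.01 and 0.57 in the other KO E19 arrays. WT P56 hyperoxia replicate 2 had 2.84, against 0.28 and 0.31 in that group's other arrays. Both arrays also enter the spread behind limma's adjusted p in the fit of all arrays. The fits of the compared groups alone and of the P5 groups alone hold neither. The E19 and P56 differences were not fitted without these arrays.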

How the data were processed

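Lung RNA of 32 mice was hybridized to 1-colour Affymetrix arrays. The deposited values are linear MAS5 signal intensities, per the submitters' processing notes and the file's own values: the trimmed mean (2% off each end) is 500.0 on every array. Of 45101 probe sets, 34945 carried 1 gene symbol in the platform annotation, 9160 none and 932 several; the last 2 kinds were not named. Array medians ran from 68.4 to 124.6. Probe sets were kept where 3 or more arrays exceeded 100.4, the median of the whole table, and 1 per gene was taken. A group of 3 arrays could thus keep a gene that was dim in all others. How far this raised a list's share of non-overlapping genes was not tested. log2(signal + 26.3) was fitted with limma 3.58.1 in R 4.3.3 (10 groups, 22 residual degrees of freedom, variance trend, two-sided), and p-values were Benjamini-Hochberg adjusted over 13345 genes with a threshold of 0.05. Fold changes are on that scale and understate those of dim genes. Array number limits the precision. The comparison and the gene lists were chosen with earlier results of these data known. Named genes were taken from a set of every called gene and, from each list, up to 5 non-overlapping members with the largest difference and its defining members; which of the list members are described was decided with their values known. Same-numbered KO and WT hyperoxia arrays deviated together (r = 0.25, 0.11 and 0.17), so the titles' numbers were also fitted as a replicate block. No arrays held the same values (the closest of the 6 correlated at 0.990). No litter is given, so p-values measure the spread between these mice. Other filters, offsets, normalizations, sets of arrays and covariates were tried. The fit was checked on simulated data. Figures were drawn with matplotlib.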

Additional observations from a re-analysis of the deposited data

Results flagged for a closer look

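The KO minus WT difference was larger in hyperoxia than in air for 20 genes by limma's genotype-by-oxygen term (adjusted p under 0.05), and it is given here on the log2 scale. Among squamous and cornified-layer genes the term was 8.63 for Krt13, 7.86 for Krt4, 4.38 for Csta1, 4.06 for Krt6a, 3.98 for Pkp1, 3.86 for Krt5, 3.58 for Crct1, 3.04 for Dsc2, 2.96 for Cnfn and 2.91 for Krtdap. Among genes known from skeletal muscle it was 6.0 for Myh8, 5.12 for Tnnt3, 3.57 for Actn3, 3.44 for Atp2a1, 2.82 for Ryr1, 2.43 for Sypl2 and 1.88 for Asb5. The remaining values were 3.89 for 2300002M23Rik, 2.79 for Ifit1bl1 and 2.34 for Cilp. Krt6a had signals of 458, 831 and 420 in KO hyperoxia lungs, against 71.7, 52.5 and 52.1 in WT hyperoxia lungs, and in air 48.7, 29.3 and 43.8 in KO, against 473, 114 and 37.1 in WT lungs. WT air replicate 1 was the highest WT air array in 20 of these 20 genes.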

How the results depend on the processing

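The hyperoxia comparison (25 genes) gave 7 genes with no offset before log2, 43 with the compared groups alone, 5 with the 4 P5 groups alone, 1779 with array weights, 1 with the squamous level and 2 with the fast skeletal muscle level as a covariate, and 11 without WT air replicate 3 and KO hyperoxia replicate 1 together; leaving out 1 of the 6 arrays gave 3 to 24, and leaving out 1 P5 air array, which only shares the estimate of spread, gave 23 to 28, or 41 without WT air replicate 1. The cause was not tested, except that a covariate takes out its own genes and that a left-out array leaves 1 group with 2 animals. Counts between 18 and 31 came from the other filters, the offset of 100, quantile normalization, array median centring (which moved the median of all genes to 0.10), every probe set on its own, no variance trend, the replicate block (29 genes, 24 of the 25 still called, Afp lost), and the liver and Y-linked levels. Gsr kept its call in all 23 settings (-2.50 to -1.93) and Saraf in 22. The genotype-by-oxygen term (20 genes) gave 13 with the stricter filter, 7 with no offset, 714 with array weights, 32 with the replicate block, 10 with the Y-linked level, 31 without both named arrays, and 6 to 34 without 1 array. By limma it gave 0 with the 4 P5 groups alone and with the squamous or muscle level (742, 684 and 620 at an unadjusted p under 0.05). With the squamous level the terms of Krt5 and Krt6a reversed to -0.0085 and -0.31. The compared groups alone hold no air arrays and cannot give this term. Genes whose WT signal was below the median (15 of the 23 higher ones) have only a bound on their fold change.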

Other observations

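A fit of the 6 compared arrays alone called 43 genes, 28 higher and 15 lower in KO hyperoxia lungs, and brought up genes not described above. They are named here after their values were seen. Psca, a surface antigen of stratified and glandular epithelia, had signals of 186, 473 and 238 in KO hyperoxia lungs, against 10.7, 7.19 and 8.26 in WT hyperoxia lungs (limma adjusted p = 0.00470 in that fit). Arg1, arginase, had 311, 388 and 231 in KO, against 76.4, 45.6 and 62.5 in WT lungs (limma adjusted p = 0.0104). The KO arrays exceeded the WT arrays in both. Ace, angiotensin-converting enzyme, had 1167, 989 and 1297 in KO, against 558, 655 and 622 in WT lungs (limma adjusted p = 0.0395), and Frzb, a secreted WNT inhibitor, had 167, 150 and 113, against 29.4, 40.3 and 37.1 (limma adjusted p = 0.0202).

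Besides 7 genes of the liver list, those lower in KO lungs in that fit included myeloid genes. Stfa3 and Stfa2l1, stefins found in neutrophils, had log2 differences of -1.80 and -1.78, and Slfn4, a schlafen gene of myeloid cells, had signals of 195, 179 and 169 in KO, against 385, 669 and 647 in WT lungs. Cyp1a1, a member of the cytochrome P450 list that is induced through the aryl hydrocarbon receptor, had 285, 269 and 364 in KO, against 547, 616 and 582 in WT lungs (limma adjusted p = 0.0473), with no overlap. Isl1, a homeobox factor of cardiac, pharyngeal muscle and neuronal progenitors, had 197, 70.9 and 125 in KO, against 2.55, 11.0 and 15.9 in WT lungs (limma adjusted p = 0.0458). In the fit of all 32 arrays none of the genes named from that fit here passed (limma adjusted p from 0.0916 for Psca to 1.0 for Stfa2l1 and Cyp1a1).

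No other tissue list held a called gene. The following counts stand beside 9.9% of all genes with every KO array above and 8.61% with every KO array below the WT arrays. In the brown and white fat list 4 of 14 measured genes lay above the WT arrays in every KO array and none below (median log2 difference 0.31), and in the nerve and glia list 4 of 11 lay above and none below (0.10). In the cytochrome P450 list 5 of 21 lay below and 1 above, in the T and NK cell list 4 of 18 below and 1 above, and in the macrophage list 4 of 25 below and 2 above.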
